A study of Mus musculus with 12 samples.

Results

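Ribosome-protected fragments (RPF) were compared between wild-type and Anaef CD4+ T cells in 4 pooled libraries, which are 4 of the 12 libraries of the study and all of its ribosome-bound material. The WT pools, 1B and 2B, came from mice carrying the normal Rasgrp1 gene on both chromosomes (WT/WT). The Anaef pools, 3B and 4B, came from mice carrying the Rasgrp1Anaef allele on both chromosomes. All mice were C57BL6 and 12 weeks old. CD4+ T cells were taken from lymph nodes with magnetic beads that bind and remove other cells, so the T cells themselves carried no antibody. Cells of 2 samples were joined in each pool, held for a short time in cycloheximide, which stops elongating ribosomes, and digested with micrococcal nuclease before the ribosomes were spun through sucrose. The allele was present in every cell of the body, and the labels do not say which animals entered a pool, and the p-values thus reflect the spread among these pools, which may be technical.

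Rasgrp1 is an exchange factor that brings Ras into its GTP-bound form when the T cell receptor (TCR) is engaged, and Anaef is a missense allele known for a slowly developing autoimmunity with more activated helper cells. A ribosome covers a short stretch of mRNA that nuclease cannot reach. Sequencing these stretches gives the number of ribosomes on each gene's mRNA relative to that on other genes. That number depends, among other things, on how much of the mRNA a cell holds and on how often ribosomes start on it. Total RNA libraries of the same genotypes measure only the first of these. In T cells the protein synthesis of resting cells is low, and signals through Ras and mTORC1 are known to raise it.

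The RPF libraries held 7009342 counts in WT 1B, 4044330 in WT 2B, 3464868 in Anaef 3B and 2868943 in Anaef 4B. Levels below are counts scaled to a common library total (CPM) on a library size scaled by the trimmed mean of M values (TMM), and fold changes are log2 of Anaef over WT. Marker genes of CD4+ T cells were abundant in the RPF of all pools. Cd4 encodes the coreceptor for MHC class II. It stood at 1378 CPM in WT 1B, 1493 in WT 2B, 1696 in Anaef 3B and 1795 in Anaef 4B. Cd3e, a signalling chain of the TCR complex, stood between 672 and 812 CPM. Of the CD8 coreceptor genes, Cd8a stood between 1.43 and 2.21 CPM and Cd8b1 between 14.9 and 19.9 CPM. Col3a1, which marks fibroblasts, had 0 counts in all 4 pools. Over 1848 genes with a mean of at least 500 counts, the median absolute log2 ratio was 0.181 between the WT pools, 0.136 between the Anaef pools and 0.181 to 0.214 across genotypes. Pools of different genotype were thus separated by little more than the WT pools were from each other.

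A pair of pools stood apart in single gene classes. Immunoglobulin genes, which plasma cells translate at very high levels, took 8.09% of the counts of WT 1B, 3.17% of WT 2B, 2.54% of Anaef 3B and 0.790% of Anaef 4B. Both WT pools lay above both Anaef pools, and WT 1B lay far above the other 3. A set of 12 predicted genes with repeat-like sequence, such as Gm10717 and Gm10800, took 0.592% of Anaef 3B and between 0.00948% and 0.0361% of the other 3 pools. These 12 genes were picked after their values were seen. Most lie at the start of chromosome 9, and Gm10717 had 3334 counts in Anaef 3B against 180, 214 and 30 in WT 1B, WT 2B and Anaef 4B. TCR genes, a check on the T cell content, took 1.02%, 1.27%, 1.37% and 1.27% of counts in the same order of pools. Counting error is far smaller than the gaps between the immunoglobulin shares, and between the repeat-like share of Anaef 3B and the others. The exact 95% binomial interval of the immunoglobulin share of Anaef 4B was 0.780% to 0.800%. For the TCR share, the intervals of WT 2B (1.254% to 1.276%) and Anaef 4B (1.253% to 1.279%) overlapped. Such intervals cover counting error only, since copies of a molecule made by PCR could not be told apart. The gene lists below are given with every pool and with each left out.

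**Figure D1:**
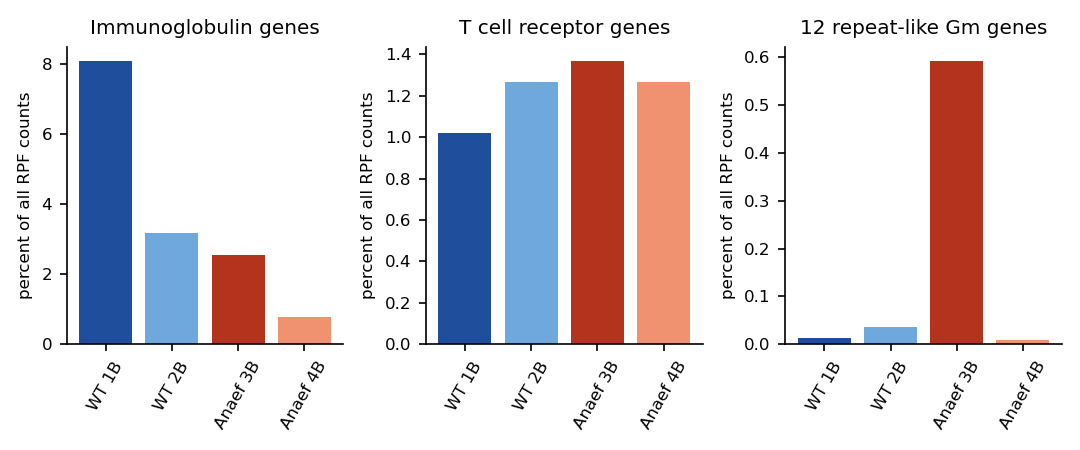
Percent of all RPF counts (vertical axes, each starting at 0) taken by immunoglobulin genes, TCR genes and 12 repeat-like predicted genes in the 4 RPF pools, 1 bar a pool. WT 1B is highest for immunoglobulin at 8.09%, Anaef 3B is highest for the repeat-like genes at 0.592%, and the TCR share lies between 1.02% and 1.37%.

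The start codon surroundings of 4 genes with the smallest p are shown because the footprints of a gene begin where the scanning ribosome stops, and a purine 3 bases before the start codon and a G just after it are known to help that choice. The sequences are taken from GENCODE M21 transcripts of GRCm38, 12 bases before to 9 bases from the A of the start codon, on the sense strand, with the start codon in capitals.
Klhdc2: tgcagcctcaagATGgctgat
Oxct1: ccggggccgaagATGgcggct
Myo6: acctccttcaaaATGgaagat
Snrpb: cgagccgccaccATGacggtg
All 4 have A at the position 3 bases before the start codon, and 3 of the 4 have G directly after it. Klhdc2 and Oxct1 had fewer footprints in Anaef, and Myo6 and Snrpb had more.

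No gene passed the comparison at an adjusted p under 0.05. Of 45669 rows in the count table, 14724 had an RPF count in some pool, and 9710 had enough counts to be tested with edgeR's quasi-likelihood test. The smallest Benjamini-Hochberg adjusted p was 0.296. At an unadjusted p under 0.05 there were 1151 genes, 11.9% of those tested, with 478 higher in Anaef (4.92%) and 673 lower (6.93%). In 2161 genes (22.3%) both Anaef pools lay above both WT pools, and in 2187 (22.5%) both lay below. With 2 pools against 2, an exact two-sided permutation test of a single gene cannot go below a p of 0.333. DESeq2 on the same genes called 207 (2.13%), 72 higher (0.742%) and 135 lower (1.39%), and limma-voom called 0.

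In a fit restricted to nuclear protein-coding genes, 6 of 9010 genes (0.0666%) passed, 2 higher (0.0222%) and 4 lower (0.0444%). When mitochondrially encoded, immunoglobulin and TCR genes alone were left out, the same 6 of 9309 (0.0645%) passed, 2 higher (0.0215%) and 4 lower (0.043%). DESeq2 also called all 6. Klhdc2, Oxct1, Gnb1 and Nnt were lower in Anaef and Myo6 and Snrpb were higher. In the comparison over all genes, the fit without Anaef 3B called all 6 and the fits without each of the other pools called none of them. A fit without 1 pool has 1 genotype with a single pool, whose spread is taken from the other genotype, so these calls are no measure of stability. The prior degrees of freedom were 13.2 without Anaef 3B and 4.68 with all pools and genes. They were 8.38 in the protein-coding fit. The log2 fold change of Klhdc2 was -1.61 (SE 0.18) over all genes and -1.62 (SE 0.19) in the protein-coding fit. In the plot of all genes tested, these 6 stand at the edge of the cloud of genes of like abundance.

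**Figure D2:**
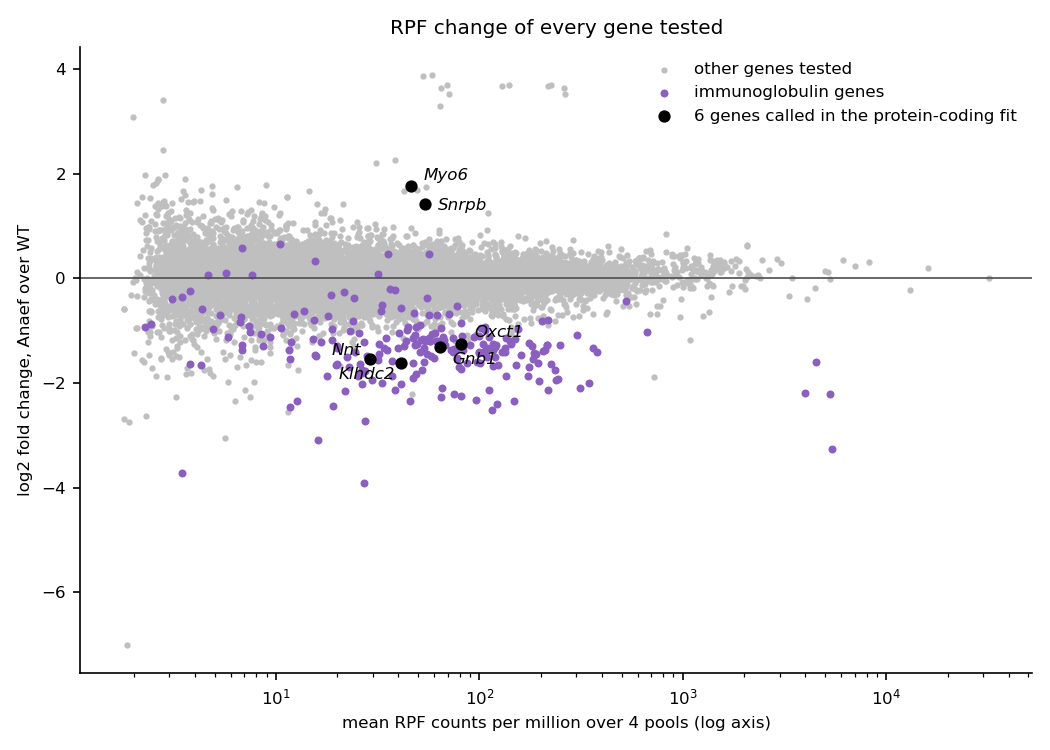
Log2 fold change of RPF, Anaef over WT (vertical axis), against the mean CPM of the 4 pools (horizontal log axis) for the 9710 genes tested, 1 point a gene. Immunoglobulin genes (purple) lie mostly below 0, the 6 genes called in the protein-coding fit (black) lie between -1.61 and 1.76, and the separate group of points above 3 at higher CPM holds the repeat-like genes that were high in Anaef 3B.

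Klhdc2 (chr12:69296681-69310687, GRCm38), the substrate receptor of a cullin ubiquitin ligase that recognises protein C termini, stood at 65.1 CPM in WT 1B, 58.5 in WT 2B, 20.9 in Anaef 3B and 19.5 in Anaef 4B. The pools of a genotype lay close together and the genotypes did not overlap. The log2 fold change was -1.61 (SE 0.18), with an adjusted p of 0.296 over all genes by edgeR and 0.0280 in the protein-coding fit. Its total RNA ranged from 38.2 to 92.3 CPM in the 4 WT and 38.3 to 85 CPM in the 4 Anaef total RNA libraries, so the genotypes overlapped there. Oxct1 (chr15:4026383-4155344), the mitochondrial enzyme that lets a cell burn ketone bodies, stood at 115 CPM in WT 1B, 115 in WT 2B, 48.7 in Anaef 3B and 48.1 in Anaef 4B. Both WT pools were at nearly the same level and both Anaef pools lay far below them. Its log2 fold change was -1.25 (SE 0.15), with an adjusted p of 0.296 over all genes and 0.0304 in the protein-coding fit by edgeR.

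Gnb1 (chr4:155491361-155559269), a beta subunit of the heterotrimeric G proteins that act below chemokine receptors, stood at 83.4 CPM in WT 1B, 98.8 in WT 2B, 35 in Anaef 3B and 38 in Anaef 4B. The genotypes did not overlap. Its log2 fold change was -1.32 (SE 0.18), with an adjusted p of 0.344 over all genes and 0.0408 in the protein-coding fit by edgeR. Nnt (chr13:119335448-119408997), the transhydrogenase of the inner mitochondrial membrane that makes NADPH, stood at 42.5 CPM in WT 1B, 43.2 in WT 2B, 12.6 in Anaef 3B and 17.1 in Anaef 4B. Both Anaef pools were lower, Anaef 3B the most. Its log2 fold change was -1.54 (SE 0.22), with an adjusted p of 0.344 over all genes and 0.0408 in the protein-coding fit by edgeR. Nnt is known to differ between substrains of C57BL/6 mice, and the labels give no substrain.

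Myo6 (chr9:80165031-80311729), the myosin that walks towards the minus end of actin filaments in endocytosis, stood at 19.6 CPM in WT 1B, 22.6 in WT 2B, 62.8 in Anaef 3B and 79.9 in Anaef 4B. Both Anaef pools lay above both WT pools by a wide gap. Its log2 fold change was 1.76 (SE 0.21), with an adjusted p of 0.296 over all genes and 0.0280 in the protein-coding fit by edgeR. Snrpb (chr2:130171414-130179403), a core Sm protein of the spliceosome, stood at 28.8 CPM in WT 1B, 30.1 in WT 2B, 72.8 in Anaef 3B and 85.1 in Anaef 4B. The genotypes again did not overlap. Its log2 fold change was 1.42 (SE 0.18), with an adjusted p of 0.296 over all genes and 0.0329 in the protein-coding fit by edgeR.

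Set against total RNA, the 6 genes fell into different patterns. A joint fit of all 12 libraries tested whether the genotype difference in RPF differed from that in total RNA, and no gene of 19031 passed it, with a smallest adjusted p of 0.418 and 636 genes (3.34%) at an unadjusted p under 0.05 by edgeR, 302 higher (1.59%) and 334 lower (1.76%). DESeq2 called 10 genes in that test (0.0525%), 4 higher (0.021%) and 6 lower (0.0315%). Among the 6, Gnb1 had the difference between the assays with the smallest p, -1.57 (SE 0.24, unadjusted p = 2.2e-05, adjusted p = 0.418), from a total RNA log2 fold change of 0.24. Oxct1 had a total RNA change of 0.12 and a difference between the assays of -1.37 (SE 0.30, unadjusted p = 0.000558, adjusted p = 0.965). Both genes thus had fewer footprints, while their total RNA overlapped between the genotypes. Gnb1 ranged from 60.5 to 109 CPM in the 4 WT and 90.9 to 114 CPM in the 4 Anaef total RNA libraries. Oxct1 ranged from 64.5 to 83.6 CPM in the same WT and 67.2 to 84.9 CPM in the same Anaef libraries. Snrpb had a total RNA change of -0.50 and a difference of 1.91 (SE 0.53, unadjusted p = 0.00364, adjusted p = 1.000). Myo6 had a total RNA change of 1.36 and a difference of 0.38 (SE 0.47, unadjusted p = 0.436, adjusted p = 1.000), so its footprints and its RNA were both higher. Nnt had a total RNA change of -0.35 and a difference of -1.19 (SE 0.33, unadjusted p = 0.00332, adjusted p = 1.000), and Klhdc2 a total RNA change of -0.17 and a difference of -1.45 (SE 0.50, unadjusted p = 0.0127, adjusted p = 1.000). Total RNA of Myo6 ranged from 5.6 to 7.99 CPM in the 4 WT and 9.5 to 21.8 CPM in the 4 Anaef total RNA libraries, and the genotypes did not overlap there either.

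Among the other genes with the smallest p, none passed in the edgeR fit over all genes. Lower in Anaef were Ppp2r5e, a regulatory subunit of protein phosphatase 2A, with 59.9 CPM in WT 1B, 56.6 in WT 2B, 24.9 in Anaef 3B and 27.9 in Anaef 4B, and Cab39, the scaffold that activates the kinase LKB1, with 128 CPM in WT 1B, 107 in WT 2B, 51.3 in Anaef 3B and 60.4 in Anaef 4B. Their log2 fold changes were -1.14 (SE 0.18) and -1.07 (SE 0.18), and DESeq2 called both. The immunoglobulin genes Ighv1-49, Igkv4-51, Iglc3 and Gm17472 completed the 10 lower genes with the smallest p. Gm17472, annotated as an immunoglobulin variable gene, had 74 counts in the WT pools and 3 in the Anaef pools. Higher in Anaef were Psma3, an alpha subunit of the 20S proteasome, with 7.53 CPM in WT 1B, 6.31 in WT 2B, 20.4 in Anaef 3B and 24.1 in Anaef 4B, and Gng2, a gamma subunit that partners G protein beta subunits such as Gnb1, with 22.7 CPM in WT 1B, 24 in WT 2B, 46.7 in Anaef 3B and 42.6 in Anaef 4B. Gng2 and Gnb1 thus had log2 fold changes of opposite sign, 0.94 (SE 0.18) and -1.32 (SE 0.18). With the trend of the values over coding length taken out of each library they were 0.55 and -1.23. The unadjusted p of Gng2 by edgeR was then 0.0184, against 0.00134 with the trend.

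Pdcd1, which encodes the inhibitory receptor PD-1, stood at 23 CPM in WT 1B, 27.9 in WT 2B, 51.9 in Anaef 3B and 48.1 in Anaef 4B. The Anaef pools were close to each other and above both WT pools, with a log2 fold change of 0.98 (SE 0.19), an adjusted p of 0.344 by edgeR and of 0.00527 by DESeq2. Dapk1, a calmodulin-regulated death-associated kinase, stood at 12.4 CPM in WT 1B, 13.8 in WT 2B, 28.1 in Anaef 3B and 28.3 in Anaef 4B, and Asb2, a ubiquitin ligase adaptor, at 12.3 CPM in WT 1B, 10.4 in WT 2B, 24.9 in Anaef 3B and 25.8 in Anaef 4B. Both had similar values in footprints and RNA, with log2 fold changes in RPF of 1.11 and 1.15 and in total RNA of 1.09 and 1.17. Cdk2ap2, a binding partner of the kinase CDK2, stood at 10.9 CPM in WT 1B, 12.1 in WT 2B, 24.4 in Anaef 3B and 37.7 in Anaef 4B. Stfa3, a cysteine protease inhibitor, was at 0.443 and 0.486 CPM in the WT pools and 4.19 and 6.02 CPM in the Anaef pools. Timm8a1, a chaperone of the mitochondrial intermembrane space, had a log2 fold change of 1.56 (SE 0.29), but its counts were identical to those of the pseudogene Gm9797 in all 4 pools, so its reads cannot be assigned.

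**Figure D3:**
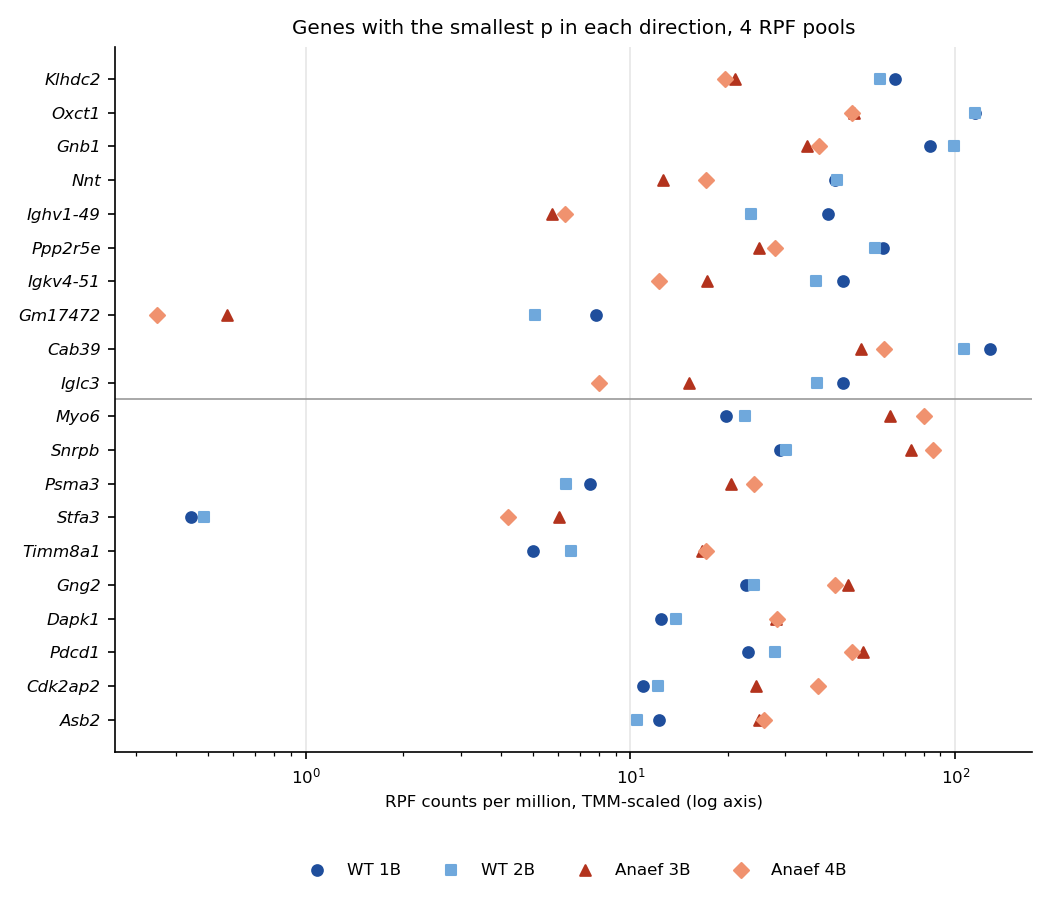
RPF level in CPM (horizontal log axis) in each of the 4 pools for the 10 lower genes (above the line) and the 10 higher genes (below it) with the smallest p, ordered by p. The pools of the 2 genotypes do not overlap in any of the 20 genes, as in 44.8% of all genes tested.

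Several abundant regulators were called by DESeq2 but not by edgeR. Ets1, a transcription factor needed for naive T cell survival, stood at 1596 CPM in WT 1B, 1530.1 in WT 2B, 928 in Anaef 3B and 971 in Anaef 4B, with a log2 fold change of -0.72 (SE 0.13), an adjusted p of 0.344 by edgeR and of 7.85e-08 by DESeq2. Its total RNA change was 0.11 and the difference between the assays was -0.84 (SE 0.20, unadjusted p = 0.00142, adjusted p = 1.000). Ybx1, an RNA-binding protein that packages mRNA, stood at 366 CPM in WT 1B, 355 in WT 2B, 231 in Anaef 3B and 204 in Anaef 4B, Hnrnpf, a splicing regulator, at 1724 CPM in WT 1B, 1556 in WT 2B, 1020.2 in Anaef 3B and 1074 in Anaef 4B, and H2afy, which encodes the histone variant macroH2A, at 177 CPM in WT 1B, 199 in WT 2B, 108 in Anaef 3B and 90.7 in Anaef 4B. In all of these the Anaef pools lay below the WT pools. The noncoding RNA Gm47854 was in the same group, at 115 CPM in WT 1B, 114 in WT 2B, 54.8 in Anaef 3B and 40.1 in Anaef 4B. On the higher side were Ly6e, a surface protein attached by a lipid anchor, at 1510.2 CPM in WT 1B, 1749 in WT 2B, 2518 in Anaef 3B and 2528 in Anaef 4B, Pfn1, which delivers actin monomers, at 462 CPM in WT 1B, 720.4 in WT 2B, 1051 in Anaef 3B and 1090.0 in Anaef 4B, and Ms4a6b, a membrane protein of T cells, at 229.9 CPM in WT 1B, 204 in WT 2B, 391 in Anaef 3B and 332 in Anaef 4B. Atp5l, a subunit of ATP synthase, a row that joins Jak3 and Insl3, and the H3 histone genes Hist2h3b, Hist2h3c2 and Hist1h3g completed this group. The H3 genes have near-identical coding sequences, so their separate values are uncertain. Without the coding length trend the log2 fold change moved from 0.63 to 0.41 for Ly6e and from 0.86 to 0.65 for Pfn1. It moved from 0.73 to 0.70 for Ms4a6b and from 0.71 to 0.40 for Atp5l. For Hist2h3b, Hist2h3c2 and Hist1h3g it moved from 0.52, 0.51 and 0.50 to 0.30, 0.29 and 0.27. Their unadjusted p by edgeR was then 0.0530, 0.0582 and 0.0568.

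Ccdc102a, a coiled-coil gene of little known function, was the gene with the largest negative fold change and was singled out after its values were seen. It had 24 counts in WT 1B, 16 in WT 2B and 0 in both Anaef pools. Against a floor of 3 counts over the Anaef pools, its RPF was at least 7.64-fold lower in Anaef. Its total RNA counts were 48 in WT and 1 in Anaef, 4 libraries each, and the WT libraries ranged from 0 to 0.724 CPM.

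Rasgrp1 itself stood at 149.7 CPM in WT 1B, 173 in WT 2B, 124 in Anaef 3B and 104 in Anaef 4B. Both Anaef pools lay below both WT pools, with a log2 fold change of -0.50 (SE 0.16) and an adjusted p of 0.363 by edgeR, which did not pass. Anaef leaves the gene in place, so these counts do not check the genotype labels. For gene lists, higher and lower members are those at an unadjusted p under 0.05 by edgeR (4.92% higher and 6.93% lower over all genes). Each list is also given with the trend of the values over coding length taken out of each library. That length-corrected fit had 338 genes higher and 607 lower over all genes tested. Left-out pools follow in the order WT 1B, WT 2B, Anaef 3B and Anaef 4B. Over all genes tested, these fits had 318, 455, 363 and 214 genes higher and 453, 628, 651 and 320 lower, against 478 and 673 with all pools. Of the 30 members of the Ras-ERK list, 25 had enough counts to be tested, and 4 had both Anaef pools above both WT pools and 12 both below (22.3% and 22.5% of all genes). At that threshold there were 1 higher and 5 lower. The Ras-ERK median with the pools left out in turn was -0.10, -0.12, -0.13 and -0.18, with 0, 1, 0 and 0 members higher and 4, 1, 3 and 0 lower. The Ras-ERK values without the length trend had a median of -0.08, with 1 higher and 2 lower. The lower ones included Rasgrp1 and the kinases Map2k1 (log2 fold change -0.52), Rps6ka3 (-0.33) and Rps6ka1 (-0.35), and the higher one was Nras (1.38). Map2k1, which encodes the kinase MEK1, stood at 77.1 CPM in WT 1B, 75.3 in WT 2B, 55.6 in Anaef 3B and 50.6 in Anaef 4B. Nras was at 1.33 and 1.46 CPM in the WT pools and 2.87 and 4.54 CPM in the Anaef pools, a low level.

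Few components directly below the TCR had pools that did not overlap. Of 24 tested members, 3 had both Anaef pools above both WT pools and 4 both below (22.3% and 22.5% of all genes), and the median log2 fold change was 0.02 against 0.01 over all genes. The TCR-proximal median with the pools left out in turn was -0.01, 0.02, 0.05 and -0.06, with 0, 0, 0 and 0 members higher and 2, 1, 1 and 1 lower. The TCR-proximal values without the length trend had a median of 0.01, with 1 higher and 1 lower. Fyn, a Src-family kinase, stood at 209 CPM in WT 1B, 232 in WT 2B, 144 in Anaef 3B and 145 in Anaef 4B, with a log2 fold change of -0.61 (SE 0.14). Lck, the Src-family kinase bound to CD4, stood between 412 and 492 CPM with overlapping pools. Among 30 tested members of the mTORC1 list, 6 had both Anaef pools above both WT pools and 9 both below (22.3% and 22.5% of all genes), with a median of -0.05 and 2 higher and 2 lower, near the shares over all genes. The mTORC1 median with the pools left out in turn was -0.01, -0.01, -0.05 and -0.07, with 1, 1, 1 and 1 members higher and 1, 2, 0 and 3 lower. The mTORC1 values without the length trend had a median of -0.07, with 2 higher and 2 lower. Lamtor5, part of the Ragulator complex that holds mTORC1 on lysosomes, was at 18.7 and 19.2 CPM in the WT pools and 34.4 and 39.4 CPM in the Anaef pools, and Sesn3, an inhibitor of mTORC1, at 139.6 and 141 CPM in the WT pools and 91.5 and 102 CPM in the Anaef pools. Of 22 tested early response genes and genes kept up by tonic TCR signals, 12 had positive and 10 negative values, with a median of 0.08, 0 higher and 3 lower. The early response median with the pools left out in turn was -0.06, 0.30, -0.02 and 0.14, with 0, 4, 1 and 0 members higher and 3, 1, 2 and 0 lower. The early response values without the length trend had a median of 0.09, with 3 higher and 2 lower. The 3 lower genes with all pools were Egr1, a transcription factor induced by ERK, at 79.4 and 107 CPM in the WT pools and 55.5 and 67.1 CPM in the Anaef pools, and its corepressors Nab1 and Nab2, with log2 fold changes of -0.60, -0.68 and -0.47.

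The lists of T cell states had medians of opposite sign. Of 22 tested genes of activated and memory cells, 13 had both Anaef pools above both WT pools and 1 both below (22.3% and 22.5% of all genes), and 8 higher and 0 lower had an unadjusted p under 0.05. Of 20 tested genes of follicular and peripheral helper cells, 13 had both Anaef pools above both WT pools and 2 both below (22.3% and 22.5% of all genes), with 9 higher and 0 lower. Of 15 tested genes of naive cells, 2 had both Anaef pools above both WT pools and 7 both below (22.3% and 22.5% of all genes), with 0 higher and 5 lower. The medians were 0.42, 0.38 and -0.33, against 0.01 over all genes tested. No member passed at an adjusted p under 0.05 by edgeR. In the same order, the total RNA medians were 0.21, 0.44 and -0.02, against 0.02 over all genes tested. The median differences between the assays were 0.01, 0.01 and -0.25, against -0.01 over all genes tested. In the footprints of bulk pools, fewer cells of a type, less RNA per cell and fewer ribosomes per mRNA cannot be told apart. Their parts in these values were not tested. The activated median with the pools left out in turn was 0.36, 0.35, 0.25 and 0.45, with 5, 8, 4 and 10 members higher and 0, 0, 0 and 0 lower. The activated values without the length trend had a median of 0.26, with 5 higher and 0 lower. The helper median with the pools left out in turn was 0.35, 0.43, 0.41 and 0.48, with 7, 9, 7 and 6 members higher and 1, 0, 0 and 0 lower. The helper values without the length trend had a median of 0.31, with 7 higher and 0 lower. The naive median with the pools left out in turn was -0.43, -0.05, -0.43 and -0.19, with 0, 2, 0 and 0 members higher and 7, 4, 4 and 4 lower. The naive values without the length trend had a median of -0.25, with 0 higher and 5 lower.

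Among helper genes, Pdcd1 had the smallest p, and Sostdc1, a secreted BMP and Wnt antagonist of follicular helper cells, stood at 4.87 CPM in WT 1B, 2.91 in WT 2B, 14.6 in Anaef 3B and 13.3 in Anaef 4B. Cxcr5, the chemokine receptor that leads T cells to B cell follicles, stood at 48 CPM in WT 1B, 35.7 in WT 2B, 71.7 in Anaef 3B and 70.1 in Anaef 4B, and Bcl6, the transcription factor that defines follicular helper cells, at 55.1 CPM in WT 1B, 59.5 in WT 2B, 84.3 in Anaef 3B and 82.3 in Anaef 4B. In each of these the Anaef pools lay above the WT pools. Sh2d1a, the adaptor SAP, was at 106 and 116 CPM in the WT pools and 158 and 171 CPM in the Anaef pools, and Tox2, a transcription factor that works with Bcl6, at 5.1 and 5.76 CPM in the WT pools and 12.9 and 15.4 CPM in the Anaef pools. The log2 fold changes were 1.79 (SE 0.36) for Sostdc1, 0.76 (SE 0.20) for Cxcr5, 0.54 (SE 0.16) for Bcl6, 0.56 (SE 0.15) for Sh2d1a and 1.36 (SE 0.30) for Tox2. The unadjusted p of Sh2d1a by edgeR was 0.00709, and 0.0716 without the length trend. The total RNA median of the helper list was 0.44. None of its 20 tested members had a difference between the assays at an unadjusted p under 0.05. Over the 9710 genes tested in RPF, 179 were higher and 289 lower at that threshold in the joint fit. Il21, the helper cytokine, had overlapping pools and a log2 fold change of 0.37 (SE 0.82).

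Among genes of activated cells, Tnfrsf4, the costimulatory receptor OX40, stood at 23.9 CPM in WT 1B, 23.1 in WT 2B, 41.3 in Anaef 3B and 39.1 in Anaef 4B, and S100a11, a calcium-binding protein of effector cells, at 161 CPM in WT 1B, 145 in WT 2B, 268 in Anaef 3B and 219 in Anaef 4B. The unadjusted p of S100a11 was 0.00444, and 0.0753 without the length trend. S100a6, of the same family, was at 13.1 and 18.9 CPM in the WT pools and 32.1 and 32.1 CPM in the Anaef pools, and Tnfrsf18, the receptor GITR, at 48.4 and 53.4 CPM in the WT pools and 69.1 and 85.5 CPM in the Anaef pools. The Anaef pools were higher in all of these, while Cd44 (0.16) and Cd69 (-0.00), surface markers of activation, had overlapping pools. Of 13 tested regulatory T cell genes, 8 had both Anaef pools above both WT pools and 2 both below (22.3% and 22.5% of all genes), with 5 higher and 1 lower. The regulatory T cell median with the pools left out in turn was 0.31, 0.38, 0.35 and 0.28, with 2, 4, 3 and 3 members higher and 1, 0, 0 and 0 lower. The regulatory T cell values without the length trend had a median of 0.37, with 4 higher and 1 lower. Ikzf2, the transcription factor Helios, stood at 21.6 CPM in WT 1B, 19.2 in WT 2B, 32.7 in Anaef 3B and 39.4 in Anaef 4B, and Cd83, which stabilises MHC class II at the surface, was at 4.13 and 4.58 CPM in the WT pools and 8.02 and 10.9 CPM in the Anaef pools. Foxp3, the factor that defines regulatory T cells, had overlapping pools and a log2 fold change of 0.25 (SE 0.29). Tnfrsf4 and Tnfrsf18 stand in both lists.

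Among naive genes, Klf3, a repressor of the Kruppel-like family, stood at 90.1 CPM in WT 1B, 104 in WT 2B, 52.2 in Anaef 3B and 42.9 in Anaef 4B, Lef1 at 886 CPM in WT 1B, 934 in WT 2B, 650.0 in Anaef 3B and 609 in Anaef 4B and Tcf7 at 809.7 CPM in WT 1B, 953 in WT 2B, 611 in Anaef 3B and 614 in Anaef 4B. Lef1 and Tcf7 encode the related transcription factors that keep T cells in the naive state. The Anaef pools lay below the WT pools in all of them. The log2 fold changes in RPF were -1.02, -0.53 and -0.53, and those in total RNA were 0.25, 0.18 and 0.41. The differences between the assays were -1.29 (SE 0.30, unadjusted p = 0.00107, adjusted p = 1.000) for Klf3, -0.73 (SE 0.22, unadjusted p = 0.00614, adjusted p = 1.000) for Lef1 and -0.95 (SE 0.19, unadjusted p = 0.000323, adjusted p = 0.838) for Tcf7. These were the 3 of 15 naive genes lower at an unadjusted p under 0.05 in that test, and none passed. Of the 9710 genes tested in RPF, 289 were lower there at that threshold, and of all genes in the joint fit 1.76% were. Il7r, the receptor of the survival cytokine IL-7, was at 540.5 and 657 CPM in the WT pools and 402 and 426 CPM in the Anaef pools, with a total RNA change of -0.24. Ccr7, the chemokine receptor for lymph node entry, had a log2 fold change of 0.20 (SE 0.15).

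Interferon-stimulated genes had mostly positive values. Of 38 tested members 33 had a positive log2 fold change, against 50.8% of all genes tested, and the median was 0.17. In 11 both Anaef pools lay above both WT pools and in 0 both below (22.3% and 22.5% of all genes). At an unadjusted p under 0.05 by edgeR, 7 were higher and 0 lower. The summed level of the list overlapped between the genotypes, at 6924 CPM in WT 1B, 5546 in WT 2B, 6786 in Anaef 3B and 7642 in Anaef 4B. Mx1, an antiviral GTPase, was at 2.07 and 2.43 CPM in the WT pools and 5.93 and 6.6 CPM in the Anaef pools, and Ifi27l2a, a small interferon-induced membrane protein, at 136 and 174 CPM in the WT pools and 188 and 264 CPM in the Anaef pools. The interferon median with the pools left out in turn was 0.40, -0.00, 0.22 and 0.13, with 13, 1, 5 and 2 members higher and 0, 1, 0 and 0 lower. The interferon values without the length trend had a median of 0.21, with 5 higher and 0 lower. Without WT 2B 19 members had positive and 19 negative values, so the count depended on that pool.

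Of 21 tested chemokine receptor and adhesion genes, 8 had both Anaef pools above both WT pools and 1 both below (22.3% and 22.5% of all genes), with 5 higher and 1 lower. Cxcr5, given above among helper genes, is 1 of the 21. The chemokine receptor median with the pools left out in turn was -0.02, 0.20, 0.12 and 0.07, with 4, 6, 4 and 4 members higher and 4, 1, 0 and 0 lower. The chemokine receptor values without the length trend had a median of 0.13, with 6 higher and 0 lower. Ccr4, a receptor of skin-homing and Th2 cells, stood at 17.1 CPM in WT 1B, 18.9 in WT 2B, 34.7 in Anaef 3B and 31.8 in Anaef 4B, and Ccr6, a receptor of Th17 and memory cells, at 2.36 CPM in WT 1B, 3.64 in WT 2B, 8.32 in Anaef 3B and 8.37 in Anaef 4B. Ccr9, the receptor for homing to the gut, was at 9.71 and 12.7 CPM in the WT pools and 20.6 and 22.7 CPM in the Anaef pools. All 3 were higher in both Anaef pools, with log2 fold changes of 0.89 (SE 0.19), 1.51 (SE 0.39) and 0.93 (SE 0.25). Ccr4 and Ccr6 also stand in the Th1, Th2 and Th17 list. Its 10 tested members had a median of 0.03, with 5 values positive and 5 negative. In 3 of the 10 both Anaef pools lay above both WT pools and in 2 both below (22.3% and 22.5% of all genes). The median of that list with the pools left out in turn was 0.25, -0.03, -0.03 and 0.18, and 0.10 without the length trend. Another 9 of its genes, such as Ifng, Il4 and Il17a, had too few counts to be tested. Of 23 tested cytokine receptor and JAK-STAT genes, 3 had both Anaef pools above both WT pools and 8 both below (22.3% and 22.5% of all genes). The cytokine receptor median with the pools left out in turn was -0.20, -0.01, -0.08 and -0.01, with 0, 1, 1 and 0 members higher and 3, 4, 3 and 3 lower. The cytokine receptor values without the length trend had a median of -0.00, with 0 higher and 4 lower. The 5 lower ones at an unadjusted p under 0.05 were Il7r, Tgfbr1 and Il6ra, the IL-6 receptor, at 205 and 214 CPM in the WT pools and 145 and 154 CPM in the Anaef pools, Il6st, its signalling partner gp130, at 61.4 and 64.8 CPM in the WT pools and 44.7 and 45 CPM in the Anaef pools, and Tgfbr2, the TGF-beta receptor, at 281 and 352 CPM in the WT pools and 214 and 218 CPM in the Anaef pools.

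Most genes of the protein folding machinery had lower values in Anaef RPF. Of 32 tested genes of translocation into and folding in the endoplasmic reticulum (ER), 3 had both Anaef pools above both WT pools and 15 both below (22.3% and 22.5% of all genes), and 2 higher and 9 lower had an unadjusted p under 0.05. The median log2 fold change was -0.33 in RPF and -0.00 in total RNA. Dnajc3, a cochaperone that also restrains the kinase PERK, stood at 192 CPM in WT 1B, 162 in WT 2B, 105 in Anaef 3B and 98 in Anaef 4B, and Hsp90b1, the ER paralogue of HSP90, at 2258 CPM in WT 1B, 740.3 in WT 2B, 656 in Anaef 3B and 663 in Anaef 4B. The 2 higher ones were Spcs1 and Ost4, small subunits of the signal peptidase and the oligosaccharyltransferase, with log2 fold changes of 0.86 (SE 0.21) and 1.07 (SE 0.33). Plasma cells are rich in ER chaperones, and the plasma cell list was lower as well, with a summed level of 52931 CPM in WT 1B, 16274 in WT 2B, 11514 in Anaef 3B and 3783 in Anaef 4B. WT 1B was the pool highest in that list. The ER median with the pools left out in turn was -0.08, -0.51, -0.34 and -0.22, with 1, 2, 2 and 1 members higher and 2, 16, 6 and 2 lower. The ER values without the length trend had a median of -0.29, with 1 higher and 4 lower. The part of plasma cell RNA in the ER values was not tested.

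Cytosolic and mitochondrial chaperones mostly had lower values too. Of 22 tested members, 1 had both Anaef pools above both WT pools and 11 both below (22.3% and 22.5% of all genes), with 1 higher and 5 lower at an unadjusted p under 0.05 and a median of -0.30. Hspd1, the mitochondrial chaperonin HSP60, stood at 249 CPM in WT 1B, 238 in WT 2B, 129 in Anaef 3B and 158 in Anaef 4B, Cct4, a subunit of the cytosolic chaperonin, at 396 CPM in WT 1B, 381 in WT 2B, 265 in Anaef 3B and 246 in Anaef 4B, and Dnaja1, an HSP40 cochaperone, at 905 CPM in WT 1B, 929 in WT 2B, 496 in Anaef 3B and 649 in Anaef 4B. Cct8, another subunit of the cytosolic chaperonin, differed the other way, at 16.8 CPM in WT 1B, 11.7 in WT 2B, 22.4 in Anaef 3B and 33.8 in Anaef 4B. The total RNA median of chaperones was 0.02. The chaperone median with the pools left out in turn was -0.28, -0.15, -0.21 and -0.41, with 1, 0, 2 and 0 members higher and 8, 8, 3 and 6 lower. The chaperone values without the length trend had a median of -0.24, with 1 higher and 5 lower. Enzymes of sterol and fatty acid synthesis had a median of -0.33. Of 24 tested, 2 had both Anaef pools above both WT pools and 9 both below (22.3% and 22.5% of all genes). Cyp51, which removes a methyl group from lanosterol, stood at 51.2 CPM in WT 1B, 49.8 in WT 2B, 34.4 in Anaef 3B and 33.1 in Anaef 4B. The sterol median with the pools left out in turn was -0.39, -0.16, -0.33 and -0.16, with 0, 2, 0 and 0 members higher and 5, 2, 2 and 1 lower. The sterol values without the length trend had a median of -0.26, with 0 higher and 4 lower.

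The translation machinery had small medians in both directions. Of 80 tested cytosolic ribosomal protein genes, 26 had both Anaef pools above both WT pools and 11 both below (22.3% and 22.5% of all genes), with 11 higher and 3 lower and a median of 0.11. The ribosomal protein median with the pools left out in turn was 0.07, 0.20, -0.01 and 0.18, with 7, 7, 7 and 2 members higher and 3, 4, 4 and 3 lower. The ribosomal protein values without the length trend had a median of -0.02, with 1 higher and 7 lower. Without Anaef 3B, 39 had positive and 41 negative values. Rpl35a was at 66.3 and 73.1 CPM in the WT pools and 102 and 125 CPM in the Anaef pools, while Rpl4 was at 608 and 682 CPM in the WT pools and 438 and 456 CPM in the Anaef pools and Rpl5 at 358 and 403 CPM in the WT pools and 258 and 267 CPM in the Anaef pools. Some mRNAs start with a terminal oligopyrimidine (TOP) tract, through which mTORC1 is known to control translation. Of 19 translation factors with such mRNAs, 2 had positive and 17 negative values, with a median of -0.18. Over all genes tested, 50.8% had positive values. In 2 of the 19 factors both Anaef pools lay above both WT pools and in 7 both below (22.3% and 22.5% of all genes). At an unadjusted p under 0.05 by edgeR, 0 were higher and 2 lower. Eef1a1, the factor that brings aminoacyl-tRNA to the ribosome, stood at 4526 CPM in WT 1B, 4745 in WT 2B, 3652 in Anaef 3B and 3402 in Anaef 4B, and Rack1, a scaffold on the small subunit, at 441 CPM in WT 1B, 593 in WT 2B, 359.6 in Anaef 3B and 302 in Anaef 4B. Eif5, which sets start codon choice and is not in the TOP list, stood at 226 CPM in WT 1B, 175 in WT 2B, 102 in Anaef 3B and 118 in Anaef 4B. The TOP factor median with the pools left out in turn was -0.14, -0.19, -0.19 and -0.11, with 0, 1, 0 and 0 members higher and 3, 3, 2 and 1 lower. The TOP factor values without the length trend had a median of -0.08, with 0 higher and 1 lower.

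The oxidative phosphorylation and histone lists had higher medians, which moved closer to 0 without the length trend. Of 74 tested nuclear genes of oxidative phosphorylation, 41 had both Anaef pools above both WT pools and 10 both below (22.3% and 22.5% of all genes), 18 higher and 1 lower had an unadjusted p under 0.05, and the median was 0.33. The oxidative phosphorylation median with the pools left out in turn was 0.22, 0.36, 0.28 and 0.34, with 11, 19, 12 and 11 members higher and 2, 0, 2 and 0 lower. The oxidative phosphorylation values without the length trend had a median of 0.08, with 5 higher and 1 lower. Ndufa1, a subunit of complex I, stood at 55.1 CPM in WT 1B, 61.7 in WT 2B, 90.6 in Anaef 3B and 109 in Anaef 4B, and Cox6b1, a subunit of cytochrome c oxidase, at 169 CPM in WT 1B, 159.5 in WT 2B, 236 in Anaef 3B and 237 in Anaef 4B. Both Anaef pools were above both WT pools in each. The unadjusted p by edgeR was 0.00346 for Ndufa1 and 0.00631 for Cox6b1, and 0.0561 and 0.235 without the length trend. Of 60 tested replication-dependent histone genes, 47 had both Anaef pools above both WT pools and 0 both below (22.3% and 22.5% of all genes), with 17 higher and 0 lower at that threshold and a median of 0.32. The histone median with the pools left out in turn was 0.31, 0.29, 0.42 and 0.17, with 14, 22, 25 and 2 members higher and 0, 0, 0 and 0 lower. The histone values without the length trend had a median of 0.05, with 0 higher and 1 lower. Histone genes share sequence, so their values are not independent. The 13 mitochondrially encoded genes, translated by mitochondrial ribosomes, had overlapping pools in every case. The Anaef pools differed from each other across these genes. The mitochondrially encoded median with the pools left out in turn was -0.09, 0.27, -0.77 and 0.62, with 0, 0, 0 and 8 members higher and 0, 0, 8 and 0 lower. The mitochondrially encoded values without the length trend had a median of 0.15, with 0 higher and 0 lower. All 13 had negative values without Anaef 3B and positive values without Anaef 4B. In mt-Atp8 Anaef 3B stood at 261 CPM and in mt-Nd3 at 234 CPM, against 49.5 to 91.8 CPM in the other pools.

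Footprints varied with coding length itself. Among nuclear protein-coding genes split into 10 classes by coding length, the shortest class (75 to 516 bases, 909 genes) had a median log2 fold change of 0.31, with 182 genes higher and 7 lower at an unadjusted p under 0.05. The classes from the fourth to the eighth (966 to 2475 bases) had medians of -0.06 to -0.13, and the longest class had 0.13. In total RNA the shortest class had a median of 0.07 and the longest 0.05. In the shortest class both Anaef pools lay above the mean of the 4 pools, by 0.09 in 3B and 0.20 in 4B on the log2 scale, and both WT pools below it, by -0.13 in 1B and -0.17 in 2B. The 423 higher genes had a median coding length of 621 bases, the 553 lower genes 1332 and all 8994 such genes 1381.5. The lower genes had a median 5' untranslated length of 216 bases in the annotation, the higher genes 142 and all genes 155. No fragment lengths are in the count table, so the part of library preparation in this dependence was not tested.

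**Figure D4:**
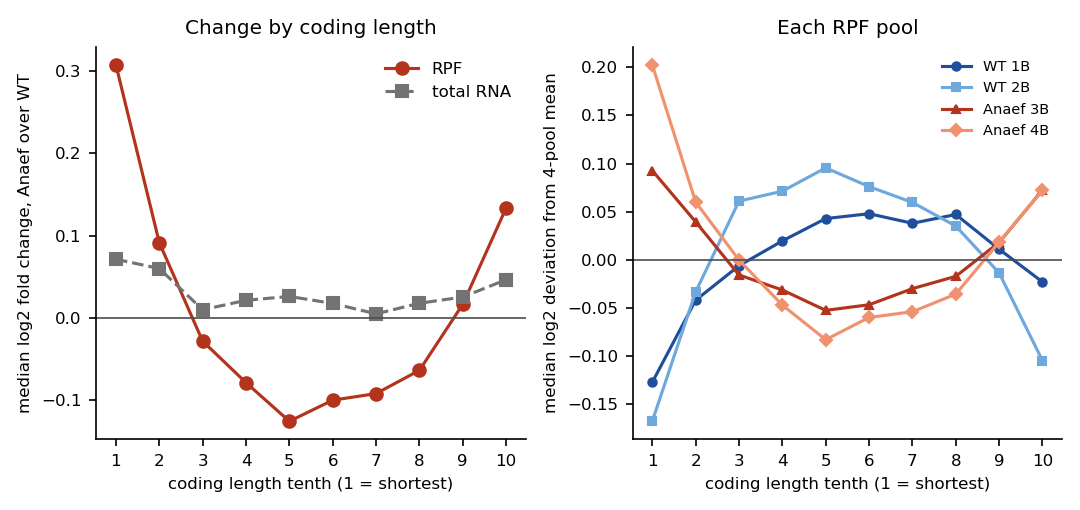
Left, median log2 fold change, Anaef over WT, in RPF (solid) and total RNA (dashed) for nuclear protein-coding genes in 10 classes of coding length, from shortest to longest. Right, median log2 deviation of each RPF pool from the mean of the 4 pools in the same classes. The shortest class is highest in RPF at 0.31, the fifth is lowest at -0.13, and the Anaef pools lie on one side of the WT pools in most classes.

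The start codon surroundings of the higher and lower genes were close to those of all genes. A purine 3 bases before the start codon was found in 87.8% of 8678 genes with an annotated context, in 90.8% of the 545 lower genes and in 89.5% of the 391 higher genes. A G directly after the start codon was found in 54.9%, 52.1% and 58.6%. All 4 printed contexts hold that purine. Of all genes 8.05% lay on chromosome 2, which carries Rasgrp1, of the lower genes 7.96% and of the higher genes 7.57%.

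**Figure D5:**
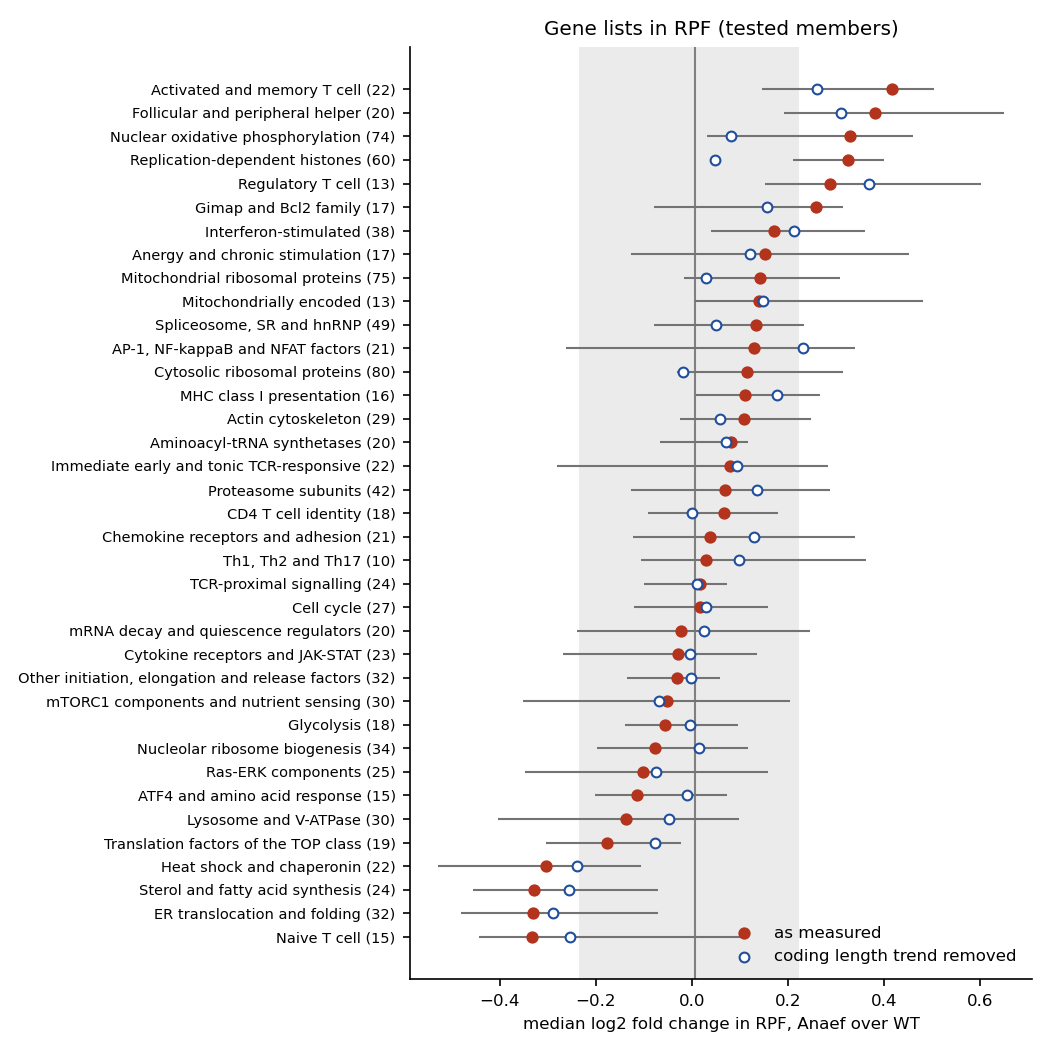
Median log2 fold change in RPF, Anaef over WT (horizontal axis), for each list of T cell genes and cellular machines (tested members in brackets; lists of other cell types are not drawn), with a bar from the first to the third quartile. Filled points are the values as measured, open points those with the coding length trend removed, and the grey band and line give the quartiles and median of all genes tested, 0.01. The activated, helper, oxidative phosphorylation and histone lists are highest as measured, and the open points of the latter 2 fall to 0.08 and 0.05.

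Genes of B lineage cells had lower values in Anaef. Of 15 tested plasma cell genes, 0 had both Anaef pools above both WT pools and 10 both below (22.3% and 22.5% of all genes), 0 higher and 12 lower had an unadjusted p under 0.05, and the median was -1.60. The plasma cell median with the pools left out in turn was -0.88, -2.28, -2.62 and -1.01, with 0, 0, 0 and 0 members higher and 1, 13, 13 and 5 lower. The plasma cell values without the length trend had a median of -1.71, with 0 higher and 11 lower. Igkc, the kappa light chain constant region, stood at 13651 CPM in WT 1B, 3711 in WT 2B, 2745 in Anaef 3B and 991 in Anaef 4B, Ighg2c at 17716 CPM in WT 1B, 1861 in WT 2B, 1629 in Anaef 3B and 404 in Anaef 4B, Igha at 6972 CPM in WT 1B, 6654 in WT 2B, 3392 in Anaef 3B and 1111 in Anaef 4B and Jchain, which links secreted IgA and IgM, at 1498 CPM in WT 1B, 787 in WT 2B, 469 in Anaef 3B and 147 in Anaef 4B. The pools of both genotypes did not overlap in these genes, and their adjusted p were 0.344 to 0.363 by edgeR. Ighm, the heavy chain of IgM, had overlapping pools, at 886 CPM in WT 1B, 323 in WT 2B, 616 in Anaef 3B and 286 in Anaef 4B. Of 12 tested B cell genes, 0 had both Anaef pools above both WT pools and 7 both below (22.3% and 22.5% of all genes), with a median of -1.10, a summed level of 1326 CPM in WT 1B, 603 in WT 2B, 766 in Anaef 3B and 562 in Anaef 4B, and 0 counts of Cd22 in all pools. The B cell median with the pools left out in turn was -0.61, -1.35, -0.59 and -1.73, with 0, 0, 0 and 0 members higher and 0, 5, 2 and 8 lower. The B cell values without the length trend had a median of -1.14, with 0 higher and 6 lower. Cd79b, a chain of the B cell receptor, was at 11.9 and 34.3 CPM in the WT pools and 7.17 and 9.77 CPM in the Anaef pools. Immunoglobulin genes took 0.354% to 1.87% of counts in the WT and 0.172% to 0.283% in the Anaef total RNA libraries, so both assays had the same direction.

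Markers of further cell types were scarce. CD8 T cell genes summed to 204 CPM in WT 1B, 261 in WT 2B, 198 in Anaef 3B and 165 in Anaef 4B, and natural killer and gamma-delta T cell genes to 64.4 CPM in WT 1B, 55.7 in WT 2B, 53.7 in Anaef 3B and 51.9 in Anaef 4B. Neither list had a member at an unadjusted p under 0.05. Myeloid and dendritic genes summed to 99 CPM in WT 1B, 106 in WT 2B, 99.5 in Anaef 3B and 123 in Anaef 4B, with 3 of 14 tested, of which Mpeg1, a pore-forming protein of phagocytes, was at 6.8 and 17 CPM in the WT pools and 2.29 and 5.93 CPM in the Anaef pools. Globin and other red cell genes summed to 29.7 CPM in WT 1B, 23 in WT 2B, 15.7 in Anaef 3B and 19.1 in Anaef 4B, and Slc4a1, the anion exchanger of red cells, was at 0. Their median log2 fold change over 5 tested genes was -1.40 in RPF and -5.72 in total RNA. The red cell median with the pools left out in turn was -0.98, -1.50, -0.61 and -2.51, with 0, 0, 0 and 0 members higher and 0, 0, 0 and 4 lower. The red cell values without the length trend had a median of -1.61, with 0 higher and 4 lower. Stromal and endothelial genes other than Pecam1, which T cells also express, were near 0, with 7 of 12 at 0 counts in all pools. Against these, the 18 genes of CD4 T cell identity summed to 13757 CPM in WT 1B, 16074 in WT 2B, 15959.9 in Anaef 3B and 15633 in Anaef 4B, and none had an unadjusted p under 0.05.

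The most footprints per coding length lay on genes of actin, the cell surface and immunoglobulin. Per kilobase of coding sequence, Tmsb4x, which holds actin monomers, had a mean of 99177 CPM over the 4 pools, Actb, the main cytoskeletal actin, 28348, B2m, the light chain of MHC class I, 19639, Igkc 16483 and Tmsb10 13802. Actb stood at 28093 CPM in WT 1B, 35675 in WT 2B, 30364 in Anaef 3B and 33435 in Anaef 4B and Tmsb4x at 15993 CPM in WT 1B, 12259 in WT 2B, 12135 in Anaef 3B and 11979 in Anaef 4B, where the pools overlapped for Actb and both Anaef pools lay below both WT pools for Tmsb4x, with a log2 fold change of -0.23 (SE 0.20). Cd52 encodes a small glycoprotein of the lymphocyte surface. It stood at 1386 CPM in WT 1B, 1855 in WT 2B, 2455 in Anaef 3B and 2544 in Anaef 4B. Its log2 fold change was 0.63 (SE 0.17), with an adjusted p of 0.344 by edgeR. Without the length trend the log2 fold change of Cd52 was 0.25. Its unadjusted p by edgeR was then 0.168, against 0.00963 with the trend.

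Further cellular machines had mixed directions. Of 42 tested proteasome subunits, 16 had both Anaef pools above both WT pools and 11 both below (22.3% and 22.5% of all genes), with 7 higher and 1 lower. The proteasome median with the pools left out in turn was 0.07, 0.10, 0.10 and 0.02, with 3, 8, 4 and 3 members higher and 1, 0, 1 and 0 lower. The proteasome values without the length trend had a median of 0.13, with 7 higher and 1 lower. Of 30 tested genes of lysosomes and the vacuolar proton pump, 4 had both Anaef pools above both WT pools and 13 both below (22.3% and 22.5% of all genes), with 1 higher and 6 lower and a median of -0.14. The lysosome median with the pools left out in turn was -0.19, -0.09, -0.18 and -0.14, with 0, 2, 0 and 1 members higher and 3, 2, 5 and 2 lower. The lysosome values without the length trend had a median of -0.05, with 0 higher and 3 lower. Ctsz, a lysosomal cysteine protease, stood at 61 CPM in WT 1B, 49.5 in WT 2B, 29 in Anaef 3B and 32.1 in Anaef 4B. Both Anaef pools were lower. Of 29 tested actin cytoskeleton genes, 14 had both Anaef pools above both WT pools and 4 both below (22.3% and 22.5% of all genes). The actin median with the pools left out in turn was 0.07, 0.16, 0.13 and 0.04, with 2, 2, 4 and 1 members higher and 1, 3, 1 and 1 lower. The actin values without the length trend had a median of 0.06, with 4 higher and 2 lower. Arpc2, a subunit of the complex that branches actin filaments, stood at 305 CPM in WT 1B, 297 in WT 2B, 177 in Anaef 3B and 192 in Anaef 4B, below both WT pools in both Anaef pools, while Pfn1 was above them. Gapdh, the glycolytic enzyme, stood at 123 CPM in WT 1B, 121 in WT 2B, 68 in Anaef 3B and 40.8 in Anaef 4B, and was the only one of 18 tested glycolysis genes at an unadjusted p under 0.05. Many pseudogenes share the sequence of Gapdh, so its count is uncertain. Of 17 tested genes of anergy and chronic stimulation, 9 had both Anaef pools above both WT pools and 4 both below (22.3% and 22.5% of all genes), with a median of 0.15. Pdcd1 stands in this list and the helper list, and Ikzf2 in this list and the regulatory T cell list. The counts of these lists are thus not independent. The anergy median with the pools left out in turn was 0.17, 0.14, 0.15 and 0.21, with 3, 4, 3 and 2 members higher and 0, 0, 0 and 0 lower. The anergy values without the length trend had a median of 0.12, with 4 higher and 0 lower.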

How the data were processed

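RPF and total RNA were sequenced from lymph node CD4+ T cells. The table holds whole-number counts per gene made by the authors, with TopHat 1.4.1 and GRCm38 per the submitters' processing notes. No source used here names the counting tool, its use of strand or what was masked. Totals of 2868943 to 7009342 counts per RPF pool set the precision, and reads carry no molecular identifiers. The 4 pools were grouped by labelled genotype and compared with edgeR 4.0.16 (R 4.3.3; TMM, filterByExpr, quasi-likelihood F test, Benjamini-Hochberg, threshold 0.05). A joint fit of 12 libraries gave the genotype by assay interaction. Each printed SE is the absolute log2 fold change divided by the square root of the edgeR F statistic. Alternatives used DESeq2 1.42.0, limma 3.58.1, other filters and scalings, trends over coding length or GC content taken out by lowess, and each pool left out. Scripts were tested on simulated data. Coordinates, coding lengths and start contexts are from GENCODE M21, where 811 rows had no match and 263 rows join several identifiers. Named genes are Rasgrp1, passing genes, in each direction 10 by smallest p (protein-coding, immunoglobulin or TCR) and up to 10 DESeq2 calls, the 10 with most counts per coding kilobase, up to 4 members of each list by p, and for lists of other cell types the 2 most abundant. The members and gene lists were chosen with earlier results of these data known, and other genes were named after their values were seen. Some genes and sequences are not reported here.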

Additional observations from a re-analysis of the deposited data

How the results depend on the processing

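The edgeR comparison of the 4 RPF pools called 0 genes, as did RLE size factors, limma-voom, a mean of at least 50 counts, removal of the coding length or GC trend, and all 12 libraries in 1 fit. DESeq2 called 207 genes, DESeq2 on all genes with a count, chosen after seeing the data, 56, edgeR without the low-count filter 514, of which 185 were immunoglobulin genes, the protein-coding fit 6 and the fit without mitochondrial, immunoglobulin and TCR genes 6. Leaving out 1 pool, where the lone pool of a genotype is assumed to vary like the other genotype, gave 0 to 211 calls, with 0 without WT 1B, 1 without WT 2B, 211 without Anaef 3B, of which 174 were immunoglobulin genes, and 14 without Anaef 4B, of which 9 were repeat-like genes. The test of RPF against total RNA called 0 genes by edgeR and 10 by DESeq2. The 6 genes called in the protein-coding fit kept their direction in every setting. Some log2 fold changes turned sign, and the cause was not tested. Actb was -0.00776 with the GC trend removed, -0.0117 in the fit of 12 libraries, -0.0178 without the filter, -0.00809 in the protein-coding fit and -0.0108 without mitochondrial, immunoglobulin and TCR genes. With the length trend removed B2m was -0.0158, Gm20594 -0.0930, Gm8797 -0.0751 and Klrd1 -0.12, and with the GC trend removed Gm20594 was -0.0289 and Klrd1 -0.0719. Klrd1 was -0.0489 by DESeq2, -0.0459 in the fit of 12 libraries, -0.0110 by limma-voom and -0.00906 without the filter. Over the fits that leave out 1 pool the values ran from -0.17 to 0.18 for Actb, -0.50 to 1.00 for Gm20594, -0.40 to 1.99 for mt-Atp8, -0.60 to 1.63 for mt-Nd3, -0.36 to 1.20 for mt-Nd4l, -0.93 to 1.17 for mt-Nd2, -1.08 to 0.47 for Ighm, -0.53 to 0.13 for Klrb1c, -0.61 to 0.41 for Tcrg-C1, -1.10 to 0.61 for Klrd1, -0.72 to 0.33 for Itgam and -0.0274 to 0.56 for Bpgm. Depth of 2868943 counts in the shallowest pool limits genes of few counts, such as Stfa3 and Ccdc102a. No paired analysis was possible because the RPF pools of the 2 genotypes share no replicate number.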
